A study of Mus musculus with 20 samples.

Results

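The genes described here are the cytochrome P450 enzymes of families Cyp1 to Cyp3, the UDP-glucuronosyltransferases of families Ugt1 and Ugt2, and the sulfotransferases (Sult) that were expressed in crypts of the mouse small intestine. They were chosen by gene symbol and by level. Of 23020 genes measured, 60 symbols belonged to these families, and 37 of them had a mean of at least 0 over the 20 libraries on the deposited log2 scale. The rule itself uses the symbol and the mean level. Just inside that limit lay Cyp2e1 at a mean level of 0.02 and Cyp2c38 at 0.19, and just outside lay Cyp3a57 at -0.11 and Ugt1a5 at -0.30. The 37 genes comprised 16 Cyp2, 5 Cyp3, 1 Cyp1, 3 Ugt1, 6 Ugt2 and 4 Sult1 genes, besides Sult2b1 and Sult6b2.

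Cytochrome P450 enzymes are heme proteins of the endoplasmic reticulum that insert oxygen into drugs, plant compounds, steroids and fatty acids, using electrons handed on by the reductase Por. Glucuronosyltransferases attach glucuronic acid, and sulfotransferases attach sulfate, to the products or to the parent compound, which makes them easier to excrete. In the small intestine these enzymes act mainly in absorptive cells, and many of their genes respond to ligands in food, bile and microbial products through the receptors PXR (Nr1i2), CAR (Nr1i3) and AHR (Ahr).

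RNA of small intestinal crypts of C57BL/6 mice was sequenced in bulk from the 3' ends of its polyadenylated transcripts, which were counted by unique molecular identifiers. The mice lacked Xiap, which encodes a ubiquitin ligase that restrains cell death, or were wild-type (WT). The groups were 5 Xiap-/- and 5 WT mice kept together for 4 weeks, called co-housed here, and 4 Xiap-/- and 6 WT mice kept with their own genotype, called housed apart. The labels do not give the age, sex, cage or deleted part of Xiap, and the extraction text names liver where all other labels name crypts.

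All levels and differences below are on the deposited log2 scale. A difference of 1 is a doubling if the authors' transformation, which is not stated, did not shrink it. Levels were not divided by transcript length, because 3' tags are read once per transcript. Intestinal transcripts were abundant, with mean levels of 14.17 for the Paneth cell product Defa24 and 13.75 for the absorptive cell protein Fabp2, while the liver product Alb was at -2.70. Of 12 liver cell markers, 6 were found and only Ttr was tested, which enteroendocrine cells also express. The goblet cell mucin Muc2 was listed at -0.83, although the goblet cell peptide Tff3 had a mean level of 12.10. Xiap itself was still read in Xiap-/- mice, at levels between 6.29 and 6.91 co-housed and between 6.25 and 6.48 housed apart. In WT mice Xiap lay between 6.36 and 6.84 co-housed and between 6.56 and 7.08 housed apart, so the genotypes overlapped after co-housing. Xist, transcribed from the inactive X chromosome of females, lay between 8.84 and 10.20 in all 20 libraries. The Y-linked genes Kdm5d, Eif2s3y and Uty reached at most -1.99, -3.51 and -3.39, so all 20 libraries read as female. The total count per library is unknown. A proxy for it, the share of 1854 rare genes standing above their own floor, averaged 8.77% ± 2.77 in co-housed Xiap-/- mice and 8.74% ± 1.47 in co-housed WT mice (SD, n = 5 each). It averaged 17.1% ± 10.5 in Xiap-/- mice housed apart (SD, n = 4) and 7.71% ± 3.69 in WT mice housed apart (SD, n = 6), with the highest value, 32.1%, in Xiap-/- replicate 2 housed apart.

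Among the oxidizing enzymes, Cyp3a11, the main drug-metabolizing P450 of its family in mouse liver and gut, had the highest mean level, 9.21, followed by Cyp3a13 at 8.89. Within family Cyp2 the highest mean levels belonged to Cyp2d26 at 8.57 and to Cyp2b10, a classical target of CAR, at 8.54. Cyp2c65 (7.91), Cyp2c55 (6.94) and Cyp2c66 (6.26), which oxidize arachidonic acid, and Cyp2j6 (7.81) were also well expressed. Cyp1a1, the best-known target of AHR, had a low mean level of 4.05, as did Cyp2c29 at 3.71. Cyp2r1, a vitamin D 25-hydroxylase, and Cyp2e1, which oxidizes ethanol, stood close to the lower limit, at 0.93 and 0.02.

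Conjugating enzymes held 3 of the 4 highest mean levels of all 37 genes. Sult1b1, which sulfates thyroid hormones and phenols, led with 10.07, before Ugt2b34 with 9.32 and Sult1d1, which sulfates dopamine and other phenols, with 9.27. Ugt2a3 had a mean level of 7.18, and the cholesterol sulfotransferase Sult2b1 one of 7.38. No Ugt1 gene reached the minimum mean of 3.32, the log2 of 10, that was set for testing. The highest of them was Ugt1a7c at 3.25, and Ugt1a1, which conjugates bilirubin, followed at 3.06. In all, 24 of the 37 genes passed that minimum and 13 did not. The 13 were the 3 Ugt1 genes with Sult1c2, Cyp2j9, Cyp2c44, Sult1a1, Ugt2b38, Cyp2r1, Cyp3a44, Cyp3a59, Cyp2c38 and Cyp2e1, with mean levels between 0.02 and 3.25.

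**Figure D1:**
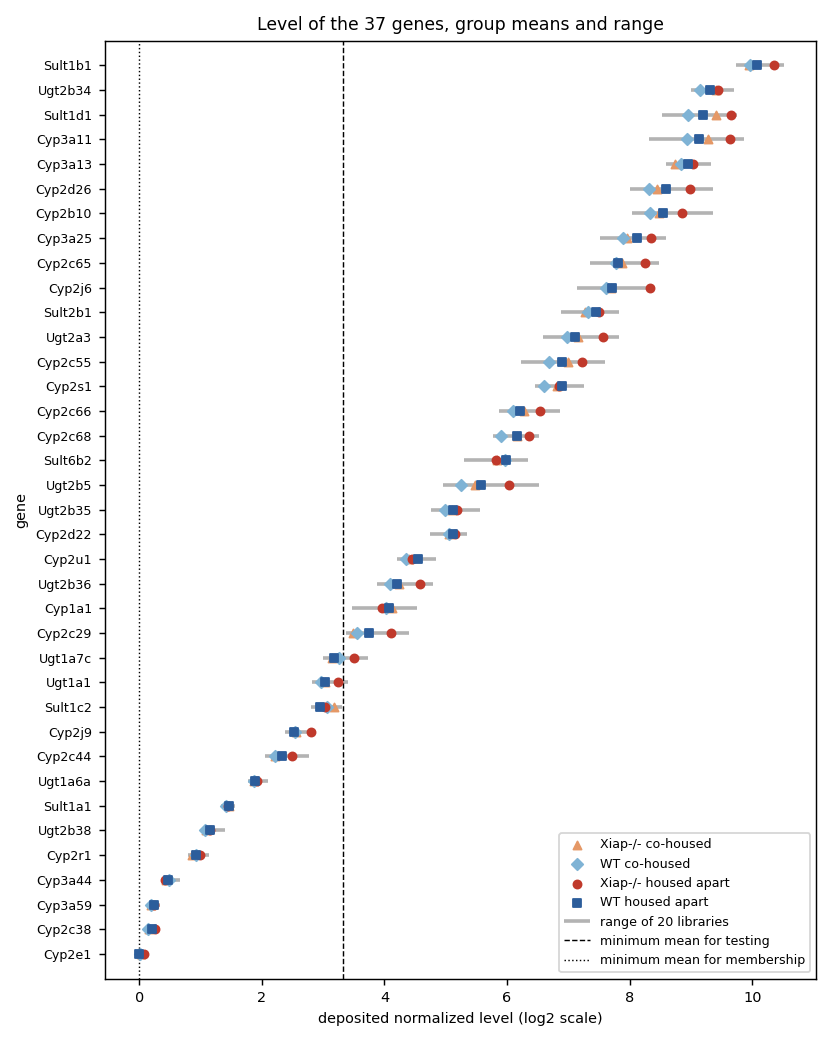
Level of each of the 37 genes on the deposited log2 scale (horizontal axis). Symbols are the means of the 4 groups and grey lines the range over 20 libraries. Sult1b1 is highest at 10.07 and Cyp2e1 lowest at 0.02, and 24 genes stand right of the dashed line at 3.32, the minimum for testing.

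The genes lie in clusters of related copies (positions from GENCODE M21 on GRCm38). Chromosome 5 holds 13 of them. The 6 Ugt2 genes with Sult1b1 and Sult1d1 follow each other from the start of Ugt2b34 at 86889767 to the end of Sult1d1 at 87569027, and 5 Cyp3a genes lie farther along the chromosome. Chromosome 19 holds the 6 Cyp2c genes placed here, from the start of Cyp2c55 at 39007019 to the end of Cyp2c68 at 39741054. Cyp2c44 has no entry of that name in the annotation. Copies can share reads. In the last 400 bases of their transcripts, 12 of 36 genes shared at least 1 stretch of 75 bases with another gene. Among the 24 tested genes these were 6, namely Cyp2c68 (32.8% of stretches), Cyp2d26 (16.9%), Cyp2d22 (8.44%), Cyp2b10 (2.30%), Cyp2c66 (1.84%) and Cyp3a25 (1.07%), and their values are less certain. The Ugt1a genes end in common exons. All stretches of Ugt1a1 and Ugt1a6a were shared, so their reads cannot be assigned to 1 gene. Of the stretches of Ugt1a7c, pooled over the ends of its 3 transcripts, 50% were shared, and reads from these cannot be assigned either.

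In mice housed apart, which asks how crypts without Xiap differ from WT crypts in mice kept with their own genotype, 20 of the 24 tested genes had a higher mean in Xiap-/- than in WT mice. Their median difference was 0.30, against -0.003 over all 9521 tested genes, of which 49.1% were higher. The largest differences were those of Cyp2j6 (0.62), Cyp3a11 (0.51), Ugt2a3 (0.47), Ugt2b5 (0.46) and Sult1d1 (0.46). No single gene of the 24 passed, however: limma, a linear model fitted across all tested genes, called 0 of 24 at an adjusted p under 0.05, against 43 of 9521 genes (0.452%). At an unadjusted p under 0.05 stood 9 of 24, all higher in Xiap-/- mice, where 7.82% of all tested genes were higher and 7.99% lower at that limit. The 24 genes were read in the same libraries, so these counts are not independent. In bulk tissue, fewer cells of a type and less RNA per cell cannot be told apart.

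Cyp2j6 (chromosome 4, 96516138 to 96553661, minus strand), which oxidizes arachidonic acid and drugs in the small intestine, had the smallest adjusted p of the 24. Its levels were 8.30, 8.30, 8.42 and 8.32 in Xiap-/- mice housed apart, against a lowest of 7.14, a median of 7.75 and a highest of 8.21 in WT mice housed apart. All 4 Xiap-/- libraries stood above all 6 WT libraries, the only such separation among the 24 genes, where 0.819% of all tested genes separated in that direction and 1.05% in the other. The difference was 0.62 ± 0.17 (SE), with an adjusted p of 0.0848. The Xiap-/- libraries had an SD of 0.06, against 0.45 in the WT libraries.

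Ugt2b36 (chromosome 5, 87065927 to 87092555, minus strand), a glucuronosyltransferase, came next. Its levels were 4.69, 4.17, 4.69 and 4.80 in Xiap-/- mice housed apart, against 3.88, 4.26 and 4.32 as the lowest, median and highest in WT mice housed apart. Xiap-/- replicate 2 lay among the WT libraries and the other 3 above them. The difference was 0.38 ± 0.11 (adjusted p = 0.0990). Ugt2a3 (chromosome 5, 87324972 to 87337195, minus strand), whose human counterpart conjugates bile acids, had levels of 7.49, 7.43, 7.82 and 7.54 in Xiap-/- mice housed apart, against 6.59, 7.18 and 7.57 in WT mice housed apart. Only the highest WT library reached into the Xiap-/- range, but every Xiap-/- library except replicate 3 lay below it. The difference was 0.47 ± 0.14 (adjusted p = 0.107).

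Sult1d1 (chromosome 5, 87554645 to 87569027, minus strand) was at 9.63, 9.57, 9.75 and 9.64 in Xiap-/- mice housed apart, against 8.66, 9.27 and 9.61 in WT mice housed apart. Only the highest WT library reached into the Xiap-/- range, and the difference was 0.46 ± 0.16 (adjusted p = 0.178). Cyp2c65 (chromosome 19, 39061015 to 39093944, plus strand) was at 8.29, 8.004, 8.48 and 8.21 in Xiap-/- mice housed apart, against 7.35, 7.90 and 8.25 in WT mice housed apart. Of its WT libraries, 3 lay inside the Xiap-/- range, and the difference was 0.43 ± 0.16 (adjusted p = 0.197).

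The same direction did not hold for every role. All 5 tested Ugt2 genes, both tested Sult1 genes and all 3 tested Cyp3 genes had higher means in Xiap-/- mice housed apart, with median differences of 0.38, 0.37 and 0.22. In family Cyp2, 9 of 11 did, with a median of 0.33. The 4 genes with lower means in Xiap-/- mice were Sult6b2 (-0.16), Cyp1a1 (-0.11), Cyp2u1 (-0.11), a fatty acid hydroxylase, and Cyp2s1 (-0.04), of which all but Cyp2u1 changed sign with 1 library left out. Cyp1a1 was at 3.88, 3.48, 4.54 and 3.96 in Xiap-/- mice housed apart, against 3.83, 4.04 and 4.52 in WT mice housed apart, and the groups overlapped fully. Cyp3a11, with the second-largest difference, had the widest spread. It was at 9.84, 9.04, 9.86 and 9.81 in Xiap-/- mice, against 8.31, 9.12 and 9.85 in WT mice, and its difference of 0.51 ± 0.31 had an adjusted p of 0.447. Its SD within groups, 0.49, exceeded that of 99.9% of tested genes.

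The remaining genes with the highest levels of their families overlapped between genotypes housed apart. Cyp3a13 was at 9.05, 8.84, 9.32 and 8.94 in Xiap-/- mice, against 8.62, 9.02 and 9.19 as the lowest, median and highest in WT mice (difference 0.09 ± 0.11). Cyp2b10 was at 8.84, 8.33, 9.37 and 8.90 in Xiap-/- mice, against 8.04, 8.47 and 9.17 in WT mice (difference 0.31 ± 0.22). In both genes the Xiap-/- libraries lay on both sides of the WT median. Sult2b1 was at 7.30, 7.46, 7.83 and 7.43 in Xiap-/- mice, against 6.89, 7.51 and 7.78 in WT mice (difference 0.06 ± 0.13). Sult6b2 was at 5.86, 5.88, 6.23 and 5.29 in Xiap-/- mice, against 5.50, 5.97 and 6.34 in WT mice (difference -0.16 ± 0.19).

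**Figure D2:**
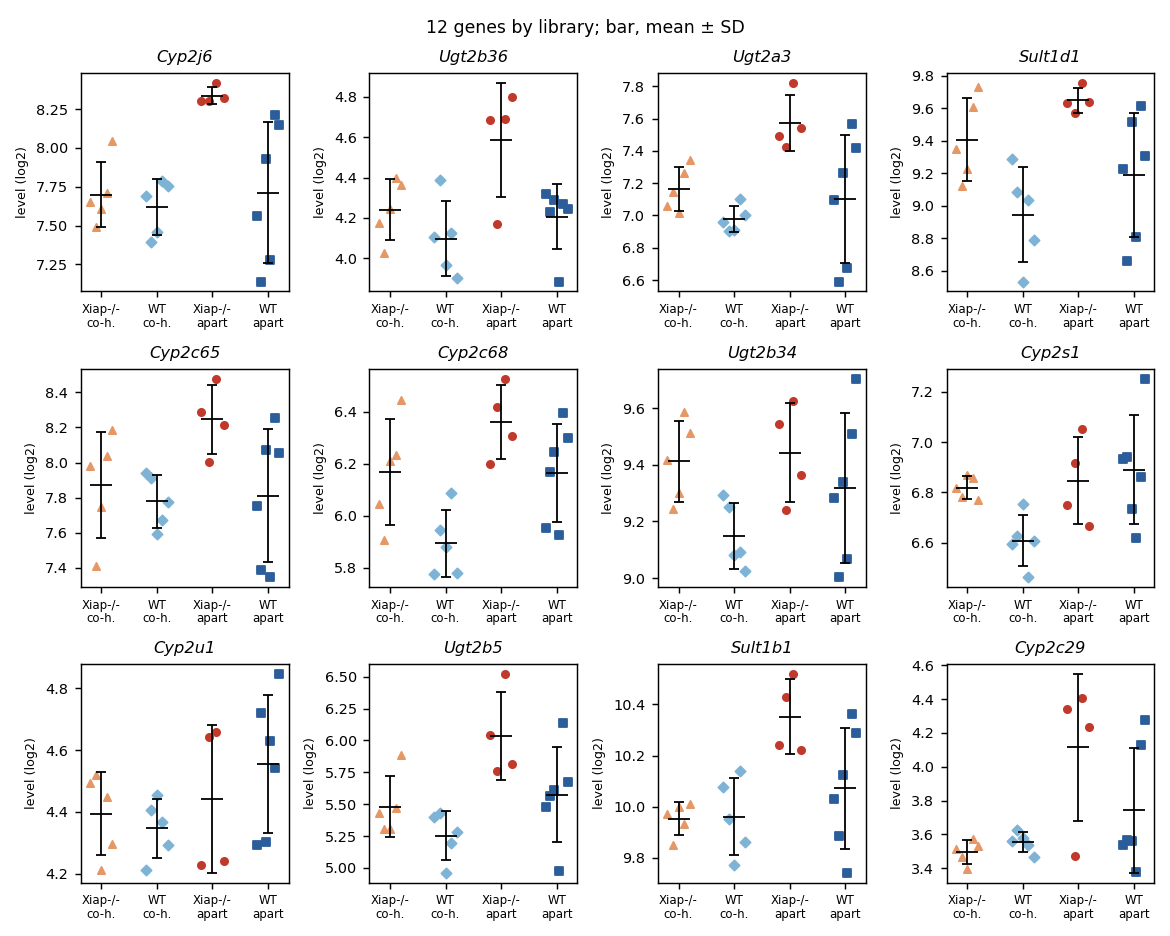
Level (log2) of 12 genes in each library (points) with group means and SD (bars). They are the 5 genes with the smallest p in each comparison, together. In the Cyp2j6 panel the 4 Xiap-/- libraries housed apart sit between 8.30 and 8.42, above all other libraries.

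The promoters of 4 of these genes are printed to show the sequence next to the values: Cyp2j6 and Ugt2b36, which were among the 5 smallest p both between genotypes housed apart and for co-housing in Xiap-/- mice, Sult1d1, with nearly equal genotype differences in both housings, and Cyp2c29, described below. Each runs from 250 bases before to 50 bases from the start site, 5′ to 3′ on the gene's strand, and is from RefSeq on GRCm38.p6. Capitals mark 4 motifs searched on both strands: AGGTCA and AGTTCA, half-sites of nuclear receptors such as PXR and CAR, GCGTG, the core bound by AHR with its partner, and TATAAA, the TATA box. A match on the other strand reads as CACGC or TTTATA here, and no marked matches overlap.
Cyp2j6: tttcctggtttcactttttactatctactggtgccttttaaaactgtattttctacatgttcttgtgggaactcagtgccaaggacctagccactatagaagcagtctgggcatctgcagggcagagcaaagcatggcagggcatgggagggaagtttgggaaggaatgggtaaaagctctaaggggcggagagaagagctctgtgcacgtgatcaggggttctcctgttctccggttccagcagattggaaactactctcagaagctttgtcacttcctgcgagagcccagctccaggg
Ugt2b36: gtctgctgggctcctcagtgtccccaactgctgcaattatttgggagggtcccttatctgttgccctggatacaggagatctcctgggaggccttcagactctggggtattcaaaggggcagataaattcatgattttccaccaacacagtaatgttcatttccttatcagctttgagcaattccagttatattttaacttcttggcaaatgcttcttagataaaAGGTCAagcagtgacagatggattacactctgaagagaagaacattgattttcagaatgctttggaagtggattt
Sult1d1: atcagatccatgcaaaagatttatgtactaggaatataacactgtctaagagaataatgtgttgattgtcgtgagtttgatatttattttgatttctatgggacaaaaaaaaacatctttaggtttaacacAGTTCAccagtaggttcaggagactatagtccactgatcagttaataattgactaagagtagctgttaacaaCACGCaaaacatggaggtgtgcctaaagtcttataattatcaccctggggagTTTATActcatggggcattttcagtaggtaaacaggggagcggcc
Cyp2c29: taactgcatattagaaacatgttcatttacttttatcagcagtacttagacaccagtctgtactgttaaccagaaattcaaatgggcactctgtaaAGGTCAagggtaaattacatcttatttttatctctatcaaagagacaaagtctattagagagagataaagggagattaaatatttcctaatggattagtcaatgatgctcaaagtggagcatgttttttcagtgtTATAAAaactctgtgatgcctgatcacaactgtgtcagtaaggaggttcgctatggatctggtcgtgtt
They are Cyp2j6 at chr4:96553602-96553901 (minus strand), Ugt2b36 at chr5:87092506-87092805 (minus strand), Sult1d1 at chr5:87568957-87569256 (minus strand) and Cyp2c29 at chr19:39286835-39287134 (plus strand). The Cyp2j6 window held none of the 4 motifs, while that of Sult1d1 held matches to 3 of them. In the Sult1d1 window AGTTCA began at position -119 relative to the start site. Its GCGTG (position -47) and TATAAA (position 5, past the start site) matched on the other strand. The Ugt2b36 window held AGGTCA from position -25 relative to the start site. In the Cyp2c29 window AGGTCA began at position -154 and TATAAA at position -19. The table of promoters held 34 of the 37 genes. Among these, AGGTCA occurred in 11 (32.4%), against 16.3% of all 32851 promoters. TATAAA occurred in 12 (35.3%), against 13.6%. AGTTCA occurred in 5 (14.7%), against 14%, and GCGTG in 7 (20.6%), against 32.4%. Related copies share sequence, so these counts are not independent, and a match does not show that a factor binds.

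After co-housing, which asks whether the genotypes still differ once they share cages, 18 of 24 genes had a higher mean in Xiap-/- than in WT mice, with a median difference of 0.12, against 0.004 over all tested genes. limma called 0 of 24 (0.0315% of all tested genes), and 4 of 24 stood at an unadjusted p under 0.05, all higher, where 5.43% of all tested genes were higher and 6.59% lower at that limit. Sult1d1 was at 9.35, 9.12, 9.22, 9.61 and 9.73 in co-housed Xiap-/- mice, against 9.29, 9.09, 8.54, 9.04 and 8.79 in co-housed WT mice. Only WT replicate 1 lay within the Xiap-/- range, and the difference of 0.46 ± 0.16 (adjusted p = 0.254) was of the same size as the one housed apart. Cyp2c68 was at 6.05, 5.91, 6.21, 6.23 and 6.45 in co-housed Xiap-/- mice, against 5.78, 5.95, 5.88, 6.09 and 5.78 in co-housed WT mice. Only 2 WT libraries reached into the Xiap-/- range, and the difference was 0.28 ± 0.10 (adjusted p = 0.283). Ugt2b34 was at 9.42, 9.24, 9.30, 9.59 and 9.51 in co-housed Xiap-/- mice, against 9.29, 9.25, 9.08, 9.09 and 9.03 in co-housed WT mice. Again 2 WT libraries lay within the Xiap-/- range, and the difference was 0.26 ± 0.11 (adjusted p = 0.340).

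Cyp2s1 (chromosome 7, 25802475 to 25816913, minus strand), an epithelial P450, was the gene of the 24 that separated here. Its levels were 6.82, 6.78, 6.87, 6.86 and 6.77 in co-housed Xiap-/- mice, against 6.59, 6.63, 6.75, 6.46 and 6.61 in co-housed WT mice. The lowest Xiap-/- library was just above the highest WT library, and 1.33% of all tested genes separated in that direction and 1.75% in the other. The difference was 0.21 ± 0.10 (adjusted p = 0.381). Cyp2j6 did not separate: it was at 7.65, 7.49, 7.60, 7.71 and 8.04 in co-housed Xiap-/- mice, against 7.69, 7.39, 7.46, 7.79 and 7.76 in co-housed WT mice.

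In WT mice, where co-housed animals were set against those housed apart, all 24 genes had a lower mean after co-housing, with a median difference of -0.15, against -0.005 over all tested genes. The differences were small. limma called 0 of 24, as it called 0 of all 9521 tested genes (0%), and 3 of 24 stood at an unadjusted p under 0.05, all lower, where 4.87% of all tested genes were lower and 5.30% higher at that limit. They were Cyp2s1 (-0.28 ± 0.09, adjusted p = 0.346), Cyp2c68 (-0.27 ± 0.10, adjusted p = 0.373) and Cyp2u1 (-0.21 ± 0.10, adjusted p = 0.484). Cyp2s1, whose co-housed levels are given above, had a lowest of 6.62, a median of 6.90 and a highest of 7.25 in WT mice housed apart, so the housings overlapped. Cyp2u1 was at 4.21, 4.41, 4.46, 4.37 and 4.29 in co-housed WT mice, against 4.30, 4.59 and 4.845 in WT mice housed apart. Ugt2b5, a glucuronosyltransferase, had the largest difference, -0.32 ± 0.16 (adjusted p = 0.514). It was at 5.40, 5.43, 4.96, 5.19 and 5.28 in co-housed WT mice, against 4.98, 5.59 and 6.13 in WT mice housed apart, with all 5 co-housed libraries below the median of those housed apart. No gene of the 24 separated the housings, where 0.221% of all tested genes separated with lower and 0.305% with higher values after co-housing.

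In Xiap-/- mice, 22 of 24 genes had a lower mean after co-housing than housed apart, with a median difference of -0.28, against 0.0004 over all tested genes. Cyp1a1 (0.16) and Sult6b2 (0.01) had higher means, and both signs turned under some alternatives. limma called 0 of 24 (0.147% of all tested genes), while 9 of 24 stood at an unadjusted p under 0.05, all lower, where 5.85% of all tested genes were lower and 5.41% higher at that limit. This comparison uses the same Xiap-/- libraries as the one between genotypes housed apart, so the pair of results is not independent.

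Sult1b1 (chromosome 5, 87513339 to 87538195, minus strand) had the smallest adjusted p. It was at 9.97, 9.85, 10.001, 9.93 and 10.009 in co-housed Xiap-/- mice, against 10.24, 10.43, 10.52 and 10.22 in Xiap-/- mice housed apart. All co-housed libraries lay below all those housed apart, and the difference was -0.40 ± 0.11 (adjusted p = 0.136). For Cyp2j6, with the values given above, the co-housed libraries again all lay lower, with a difference of -0.64 ± 0.17 (adjusted p = 0.136). Cyp2d26 and Ugt2a3 also separated, which makes 4 of 24 genes, where 2.98% of all tested genes separated with lower and 2.65% with higher values after co-housing. Cyp2d26 was at 8.50, 8.01, 8.45, 8.59 and 8.71 in co-housed Xiap-/- mice, against 8.80, 8.97, 9.36 and 8.83 in Xiap-/- mice housed apart. The differences of Cyp2d26 and Ugt2a3 were -0.54 ± 0.19 (adjusted p = 0.318) and -0.40 ± 0.14 (adjusted p = 0.296). Sult1b1, Cyp2j6 and Ugt2a3 were called lower when only the groups compared entered the fit (1.78% of all tested genes called) and with array weights (2.35% called). The depth proxy also differed here, at 8.77% co-housed and 17.1% housed apart. With it as a covariate none was called, with differences of -0.32 for Sult1b1 (adjusted p = 0.855), -0.55 for Cyp2j6 (adjusted p = 0.845) and -0.39 for Ugt2a3 (adjusted p = 0.856). The share of all tested genes called in that fit is not given here. Whether the lost calls are particular to these genes therefore cannot be told. Ugt2b5 differed by -0.55 ± 0.18 (adjusted p = 0.254) and Ugt2b36 by -0.34 ± 0.12 (adjusted p = 0.248), and both overlapped between housings.

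Cyp2c29 (chromosome 19, 39269405 to 39330713, plus strand), which forms epoxides of arachidonic acid, had levels of 3.51, 3.46, 3.39, 3.57 and 3.53 in co-housed Xiap-/- mice, against 4.34, 3.47, 4.41 and 4.24 in Xiap-/- mice housed apart. The difference was -0.62 ± 0.17 (adjusted p = 0.158). Of the libraries housed apart, 3 stood far above the co-housed ones and replicate 2 among them. With each library left out in turn the difference lay between -0.83 and -0.52 and the adjusted p between 0.00471 and 0.534. The gene was called in 1 of these fits, the one without replicate 2, with 0.0630% of all tested genes called. In co-housed WT mice all 5 libraries lay between 3.47 and 3.63. WT mice housed apart were split, with replicates 5 and 6 at 4.13 and 4.28 and the other 4 between 3.38 and 3.57.

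**Figure D3:**
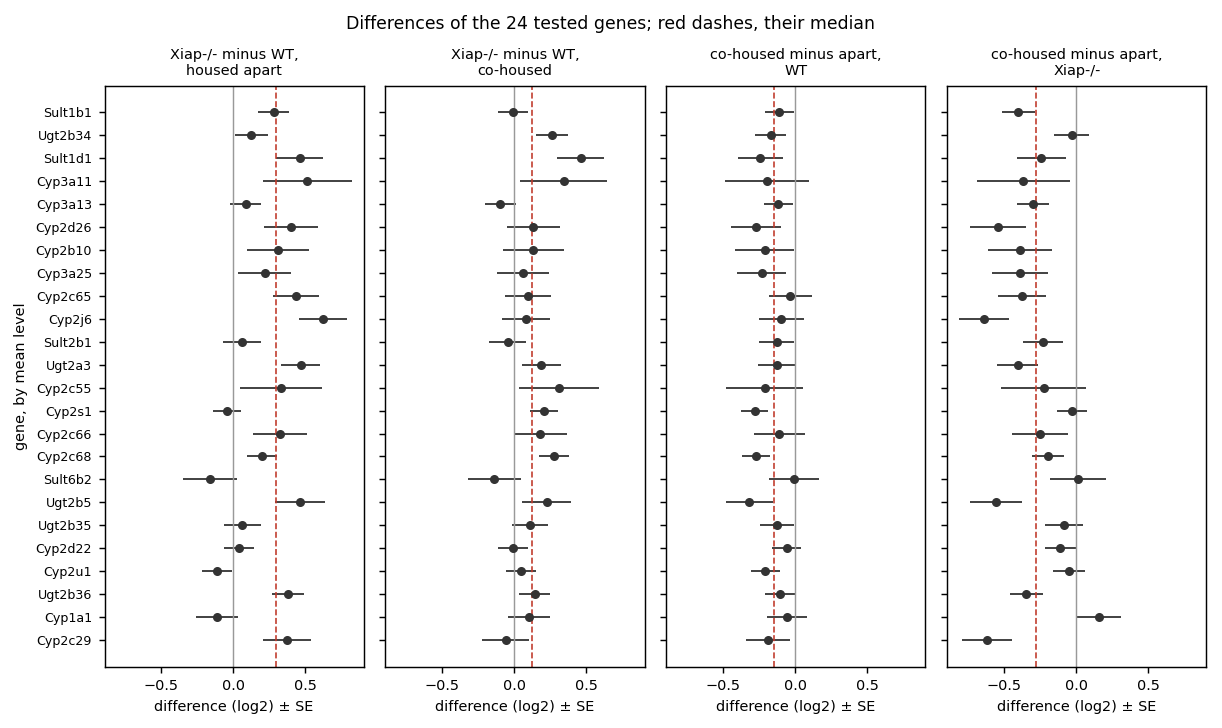
Difference of each of the 24 tested genes (log2, points, with SE as bars) in 4 comparisons, ordered by mean level. Red dashes mark the median, at 0.30 and 0.12 for Xiap-/- minus WT housed apart and co-housed, and at -0.15 and -0.28 for co-housed minus housed apart in WT and Xiap-/- mice.

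Whether the genotype difference itself depended on housing was tested as an interaction, the genotype difference co-housed minus that housed apart. limma called 0 of 24 (0.0105% of all tested genes), and 1 of 24, Cyp2j6, stood at an unadjusted p under 0.05, below 0, where 3.20% of all tested genes were below 0 and 3.84% above at that limit (7.05% in all). Its interaction was -0.54 ± 0.23 (adjusted p = 0.661). Next came Sult1b1 with -0.29 ± 0.15 (adjusted p = 0.731) and Cyp2s1, of the opposite sign, with 0.25 ± 0.14 (adjusted p = 0.739). Over the 24 genes, 16 interactions were below 0 and 8 above, with a median of -0.15, against -0.004 over all tested genes.

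The 13 genes under the minimum were fitted with all 15057 genes that had a mean of at least 0. Their SD within groups lay between 0.039 and 0.16, against a median of 0.15 over all tested genes, and shrinkage of low values by the transformation was not tested. Ugt1a7c (chromosome 1, 88095062 to 88220002, plus strand) passed there in 1 comparison. It was at 3.16, 3.22, 3.19, 3.13 and 3.00 in co-housed Xiap-/- mice, against 3.50, 3.31, 3.73 and 3.46 in Xiap-/- mice housed apart. The groups did not overlap, as in 3 of the 13 genes, the others being Ugt1a1 and Cyp2r1. Of the 9521 tested genes, 2.98% separated with lower and 2.65% with higher values here, and the share of the 15057 genes is not given. Ugt1a7c fell by 0.36 ± 0.08 after co-housing (adjusted p = 0.0487, with 0.159% of the 15057 genes called). The call was at the edge of the threshold. With no minimum mean the adjusted p was 0.0571, and with 1 Xiap-/- library left out in turn, a choice made after seeing the data, it lay between 0.0470 and 0.312, under 0.05 only without replicate 2 housed apart. Since 50% of the stretches pooled over the ends of its 3 transcripts are common to other Ugt1a genes, this value may belong to several of them. Between genotypes housed apart, Cyp2j9 was the 1 gene of the 13 that separated, with all Xiap-/- libraries above the WT ones. Of the 9521 tested genes, 0.819% separated in that direction and 1.05% in the other. The difference of Ugt1a7c there was 0.33 ± 0.08 (adjusted p = 0.0531), and that of Cyp2j9 was 0.28 ± 0.07 (adjusted p = 0.0723, with 0.325% of the 15057 genes called). The other 11 genes had no adjusted p under 0.05 in any of the 5 comparisons, and in the remaining ones 0.0531% (genotype co-housed), 0.0266% (housing in WT mice) and 0.00664% (interaction) of those genes were called.

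Libraries also differed within groups. Each gene's level was compared with its own mean over the 20 libraries. In co-housed mice, 10, 2, 5, 15 and 19 of the 24 genes stood above that mean in the Xiap-/- libraries and 9, 7, 2, 4 and 2 in the WT libraries. In Xiap-/- mice housed apart the counts were 18, 13, 24 and 19. In WT mice housed apart they were 24, 23 and 20 in replicates 5, 6 and 3, but 6, 5 and 1 in replicates 1, 2 and 4. Over all tested genes, between 48.5% and 51.0% stood above their own mean in every library.

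Markers of absorptive cells also varied between libraries. Of 23 markers, 7, 0, 8, 8 and 12 stood above their own mean in co-housed Xiap-/- libraries and 8, 6, 3, 14 and 2 in co-housed WT libraries. In Xiap-/- mice housed apart the counts were 19, 13, 23 and 16. In WT mice housed apart they were 23, 21 and 20 in replicates 5, 6 and 3, and 15, 2 and 0 in replicates 1, 2 and 4. Both sets were high in Xiap-/- replicate 3 and WT replicates 5 and 6 housed apart. Both were low in WT replicate 4 housed apart and co-housed Xiap-/- replicate 2. Co-housed WT replicate 4 and WT replicate 1 housed apart were high in markers (14 and 15 of 23) but not in enzyme genes (4 and 6 of 24). Co-housed Xiap-/- replicate 4 went the other way, with 8 of 23 markers and 15 of 24 enzyme genes. The log2 of the summed marker level lay between 15.64 and 15.96 in co-housed Xiap-/- mice, between 15.72 and 15.90 in co-housed WT mice, between 15.84 and 16.32 in Xiap-/- mice housed apart and between 15.63 and 16.33 in WT mice housed apart. Between genotypes housed apart, 18 of 23 markers were higher in Xiap-/- mice, with a median difference of 0.10, against the 0.30 of the 24 enzyme genes. With co-housing, 22 of 23 markers had lower means in Xiap-/- mice and 20 of 23 in WT mice, with median differences of -0.20 in both. limma called 0 of 23 in each of the 5 comparisons. Other lists also shifted with co-housing in WT mice. There 0 of 9 T cell, 0 of 5 distal small intestine and 0 of 7 goblet cell markers were higher (medians -0.31, -0.30 and -0.18). By contrast, 7 of 8 stem cell, 7 of 10 dividing cell and 3 of 3 proximal small intestine markers were higher. In Xiap-/- mice, 1 of 9 T cell, 3 of 5 distal and 3 of 7 goblet cell markers were higher. Among the markers of other cell types limma called 3 genes, whose values under the alternatives are not given. In Xiap-/- mice housed apart Chgb, a granule protein of enteroendocrine cells, rose by 0.47 ± 0.11 (adjusted p = 0.0469) and Ttr by 0.42 ± 0.10 (adjusted p = 0.0346). They were 1 of 8 enteroendocrine markers and the 1 liver marker tested, where 0.452% of all tested genes were called. Ltc4s, an eicosanoid synthase of tuft cells, fell by 0.52 ± 0.11 with co-housing in Xiap-/- mice (adjusted p = 0.0283). It was 1 of 6 tuft cell markers tested, where 0.147% of all tested genes were called. The part of cell composition in the differences of the enzyme genes was not tested.

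**Figure D4:**
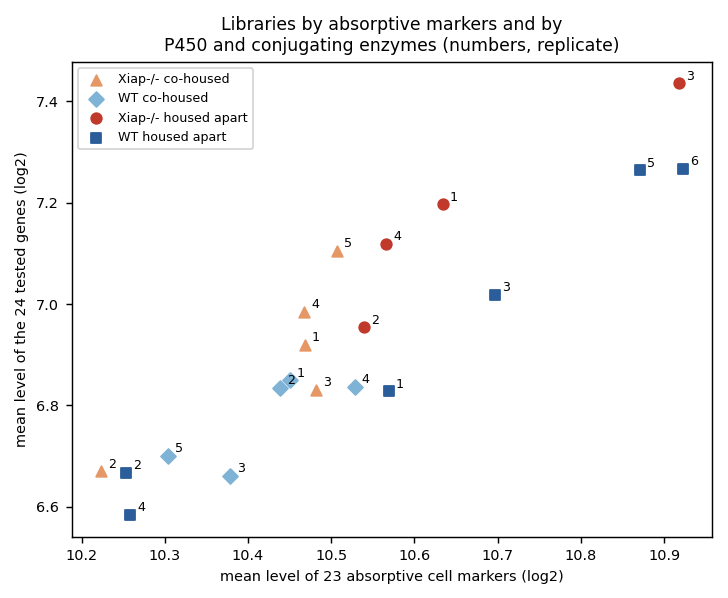
Each of the 20 libraries by the mean level of 23 absorptive cell markers (horizontal axis, log2) and of the 24 tested enzyme genes (vertical axis, log2), with replicate numbers. Libraries of Xiap-/- mice housed apart have enzyme means between 6.95 and 7.44, and those of WT mice housed apart span most of the whole range, from 6.58 to 7.27.

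Removing WT replicate 5 housed apart, in which all 24 genes were above their mean, changed the calls between genotypes housed apart. This library was high in these genes, so leaving it out tends to raise their differences. Without it limma called 7 of 24 genes higher in Xiap-/- mice, namely Sult1b1, Sult1d1, Cyp2c65, Cyp2j6, Ugt2a3, Ugt2b5 and Ugt2b36, while 7.32% of all tested genes were called. Without WT replicate 6 it called Cyp2j6 (adjusted p = 0.0343, with 0.704% of all tested genes called). Without Xiap-/- replicate 2, the library with the highest depth proxy, it called Ugt2b36 (adjusted p = 0.0403, with 0.0945% called). Xiap-/- replicate 3 housed apart also had all 24 genes above their mean, and leaving out such a library tends to lower the differences. With each library left out in turn, the smallest differences were 0.51 for Cyp2j6, 0.37 for Ugt2a3, 0.35 for Sult1d1 and 0.30 for Ugt2b5. Their limma adjusted p reached at most 0.210, 0.261, 0.357 and 0.463, in that order. With array weights, which give noisier libraries less weight, limma called Cyp2j6 and Ugt2a3 (4.04% of all tested genes called). With the depth proxy as a covariate the difference of Cyp2j6 was 0.52 and its adjusted p 0.796, and the median difference of the 24 genes was 0.26, with 0 called. Here too the share of all tested genes called is not given, so whether this count is particular to these genes cannot be told. The part of depth in these results was not tested further.

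Sensors and regulators of these genes showed no called difference. Of 22 listed, 20 were tested, and limma called 0 of 20 in each of the 5 comparisons, with median differences between -0.01 and 0.02. Nfe2l2, the activator of antioxidant response genes, had a difference of 0.34 ± 0.09 between genotypes co-housed (adjusted p = 0.113). Of 19 genes for electron donors, heme and cofactors, 16 were tested and 0 called. The heme-binding partner of P450 enzymes Pgrmc1 differed by 0.42 ± 0.11 between genotypes housed apart (adjusted p = 0.0623), and the electron donor Cyb5a by 0.45 ± 0.14 (adjusted p = 0.114). Por differed by -0.31 ± 0.10 with co-housing in WT mice (adjusted p = 0.353).

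Other biotransformation enzymes, such as alcohol and aldehyde dehydrogenases, gave the only calls among the lists of regulators, cofactors, enzymes and transporters. Of 25 listed, 19 were tested, and 17 of these had higher means in Xiap-/- mice housed apart, with a median difference of 0.20. limma called 2 of the 19 there, against 0.452% of all tested genes. Aldh1a1, which oxidizes retinaldehyde to retinoic acid, rose by 0.71 ± 0.16 (adjusted p = 0.0415) and Adh1, an alcohol and retinol dehydrogenase, by 0.52 ± 0.12 (adjusted p = 0.0492). With each of the 20 libraries left out in turn, a check added after seeing the data, the call was lost in 12 cases for Aldh1a1 (adjusted p between 0.00146 and 0.146) and in 16 for Adh1 (between 0.00549 and 0.153). Both calls were also lost with the depth proxy as a covariate (differences 0.64 and 0.49, adjusted p = 0.769 each) and with only the groups compared in the fit (adjusted p = 0.0734 and 0.235). The differences of both genes stayed above 0 in all of these fits, between 0.63 and 0.81 for Aldh1a1 and between 0.41 and 0.60 for Adh1 with 1 library left out. With co-housing in Xiap-/- mice Adh1 differed by -0.58 ± 0.13 (adjusted p = 0.0527) and Aldh1a1 by -0.73 ± 0.16 (adjusted p = 0.0673). Of 14 drug transporters, 11 were tested and 0 called. The export pump Abcc2 differed by -0.48 ± 0.13 with co-housing in Xiap-/- mice (adjusted p = 0.119), and Abcb1a, which encodes P-glycoprotein, by -0.39 ± 0.12 in WT mice (adjusted p = 0.312). Among 8 tested P450 genes of other families, which act largely on sterols and other endogenous compounds, the median difference between genotypes housed apart was 0.11. Cyp51, of cholesterol synthesis, fell by 0.42 ± 0.09 in Xiap-/- mice (adjusted p = 0.0192). It was the 1 gene of the 8 called there, against 0.452% of all tested genes, and its values under the alternatives are not given. With co-housing, means of these P450 genes were lower in 7 of 8 in Xiap-/- mice (median -0.34, 0 called). In WT mice they were lower in 8 of 8 (median -0.13, 0 called), beside medians of -0.28 and -0.15 for the 24 genes.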

How the data were processed

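The authors deposited normalized log2 levels of 23020 genes, which range between -3.88 and 16.30. DESeq2 1.18.1 and build GRCm38.p6 are named in, and credited to, the submitters' processing notes. The transformation and the tools for alignment and counting are not given in the sources used here, and depth is unknown. Whether the transformation shrinks differences of low genes was not tested. The deposited values were used as they stand, with no pseudocount. Genes with a mean of at least 3.32 (9521) were fitted in R 4.3.3 with limma 3.58.1 on 4 group means over all 20 libraries (trended, robust empirical Bayes, 16 residual degrees of freedom). Tests are two-sided, with Benjamini-Hochberg adjustment over all tested genes and a threshold of 0.05. The p-values measure the spread among mice, not among cages. The labels name no cage, so the independence of the mice is assumed and could not be checked. Mice housed apart were kept with their own genotype, so genotype and cage cannot be told apart there. Nor can housing and cage be told apart within a genotype.

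Errors are SE of differences and SD of means. Members and lists were chosen with earlier results of these data known. Genes were named if among the 5 smallest p of a comparison or the 2 highest levels of a family, and others after their values were seen. The alternatives tried changed the minimum mean, the weighting, the scaling, the libraries and the covariates. For 24 date-like names no gene is given.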

Additional observations from a re-analysis of the deposited data

Results flagged for a closer look

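Among 76 tests of a group's most extreme library, 6 stood apart from the rest of their group, and chance alone marks about 1 in 20. Ugt2b36 was at 3.88 in WT replicate 4 housed apart, with the other 5 between 4.23 and 4.32. Ugt2b5 was at 5.89 in co-housed Xiap-/- replicate 5, with the others between 5.30 and 5.47. Cyp3a11 was at 9.04 in Xiap-/- replicate 2 housed apart, with the others between 9.81 and 9.86. Cyp3a13 was at 9.002 in co-housed WT replicate 4, with the others between 8.78 and 8.80. Sult6b2 was at 5.37 in co-housed Xiap-/- replicate 2, with the others between 5.86 and 6.03. Cyp1a1 was at 4.52 in WT replicate 6 housed apart, with the others between 3.83 and 4.08.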

How the results depend on the processing

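The count of called genes was 0 of 24 for the genotype difference co-housed, the housing difference in WT mice and the interaction under every alternative run. In the main fit only 0.0315%, 0% and 0.0105% of all tested genes were called in these comparisons. Their shares under most alternatives are not given, so the count of 0 cannot be read as particular to these genes. For Xiap-/- against WT mice housed apart the count was 2 with array weights (Cyp2j6 and Ugt2a3) and between 0 and 7 with 1 library left out. For co-housing in Xiap-/- mice it was 3 with array weights and 3 with only the groups compared in the fit (each time Sult1b1, Cyp2j6 and Ugt2a3), and between 0 and 1 with 1 library left out. With the minimum mean at 0 the only call there was Ugt1a7c, which is not among the 24 (0.159% of all genes with a mean of at least 0 called). With array weights 4.04% and 2.35% of all tested genes were called in these comparisons, and with only the groups compared 1.78%. The replicate block gave 6 called genes in each of these comparisons, with 3.68% and 1.99% of all tested genes called. Cyp2d26, Cyp2j6, Ugt2a3, Ugt2b5 and Cyp2c29 were called in both, besides Cyp2c65 between genotypes and Sult1b1 for co-housing. Same-numbered samples deviated together only in part (27 pairs, r between -0.42 and 0.36, 10 over 0.1, and 6 of 20 samples closest to their own number). The labels name no pairs, so the numbers were not taken to pair the mice. Small differences changed sign. Between genotypes housed apart these were Sult2b1 with array weights (-0.0071), Cyp2s1 (0.028) and Cyp1a1 (0.0095) with the replicate block, and Cyp1a1 with the depth proxy (0.12). With 1 library left out, the genotype difference housed apart lay between -0.0074 and 0.15 for Cyp3a13, -0.053 and 0.13 for Sult2b1, -0.11 and 0.029 for Cyp2s1, -0.30 and 0.016 for Sult6b2, and -0.31 and 0.048 for Cyp1a1. With co-housing in Xiap-/- mice, Cyp1a1 was at -0.050 with the depth proxy, and Sult6b2 at -0.019 with the replicate block and between -0.16 and 0.15 with 1 library left out. The cause was not tested. Unknown depth and 4 to 6 mice in a group limit the precision.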
